A study of Rattus norvegicus with 65 samples.

Results

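Neuropeptide Y, agouti-related peptide, proopiomelanocortin, cocaine- and amphetamine-regulated transcript and the ghrelin receptor are encoded by Npy, Agrp, Pomc, Cartpt and Ghsr. These 5 of the 38513 genes in the count table were taken from the table by gene symbol and were followed in the whole hypothalamus of 65 male Wistar rats, with 1 library per animal. All groups for which the methods describe a treatment received high-fat diet for 6 weeks from an age of 9 to 10 weeks. There were 14 RYGB-treated rats (Roux-en-Y gastric bypass, in which a small stomach pouch is joined to the lower gut), 11 rats with a sham operation and 7 BWM (body weight-matched) rats, which were given a limited ration to bring them to the weights of the bypass animals. The match was incomplete when tissue was taken, since the study describes BWM rats as heavier than RYGB rats by then. The abstract of the study gives the BWM group as sham plus body weight-matched, whereas its methods name only the limited food. Treatments with hormones were liraglutide, a stable analogue of GLP-1, at 0.4 mg/kg/day under the skin with saline by minipump (5 rats), PYY3-36, a gut peptide, at 0.1 mg/kg/day by minipump with saline under the skin (4 rats), both together (10 rats), or saline by both routes (8 rats). Except in BWM animals, high- and low-fat food was freely available after the intervention. A further 6 animals carry only the label lean. The study also mentions a group on low-fat diet alone, which the sources used here do not tie to that label. Tissue was collected 4 weeks after the intervention and after 10 h of fasting in the groups described by the methods, so their levels belong to the fasted state. Experiments were run in 2 periods, batch A with 37 rats and batch B with 28. RYGB, sham, saline and combined treatment were in both, BWM and lean only in A, and PYY3-36 and liraglutide only in B.

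The arcuate nucleus at the base of the hypothalamus holds opposing sets of neurons that read signals of energy supply from the blood. Neurons of the first set release NPY and AgRP, which promote eating, and AgRP does so by blocking melanocortin receptors. Neurons of the second set make POMC, the precursor of α-MSH, which activates those receptors and reduces eating, and in rodents many of them also make CART. The ghrelin receptor is found on AgRP neurons among other cells and is the site at which the stomach hormone ghrelin acts. Npy and Cartpt are also transcribed widely outside the arcuate nucleus, and Pomc is a main transcript of the pituitary gland, which hangs below it.

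In the genome build of the deposited counts (Rnor_6.0), Cartpt lies on the minus strand of chromosome 2 at 30125249 to 30127408, Ghsr on the plus strand of chromosome 2 at 113065953 to 113071265, and Npy on the plus strand of chromosome 4 at 79557856 to 79565059. Pomc lies on the plus strand of chromosome 6 at 28382937 to 28388771. Agrp lies on the minus strand of chromosome 19 at 37525941 to 37584875, where Fam65a and LOC100361838 overlap it on the opposite strand, and counting used the strand. The values of a gene are reads over all its annotated exons. The annotation of Rnor_6.0 holds a near-identical copy of Npy, LOC100912228, on chromosome 4 at 79573999 to 79581212. Reads that map to several places were shared out as fractions, and the values of Npy and its copy were equal in 57 of 65 libraries at a tolerance of 1e-06 and never further apart than 1.0 count. The Npy values below are therefore those of 1 of a pair of rows that share reads, and the total for NPY transcripts cannot be read from this row alone.

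The 250 bases before the transcription start are shown for all 5 genes because 4 of them varied together across libraries and Npy did not do so in the same way. All 5 symbols were matched to RefSeq promoters of the build GRCr8, at chr4:80211861-80212110 (plus strand), chr19:50359498-50359747 (minus), chr6:32659103-32659352 (plus), chr2:32991236-32991485 (minus) and chr2:112196908-112197157 (plus). Sequences run 5′ to 3′ towards the start, and capitals mark the TATA box (TATAAA, searched on the transcribed strand) and the cyclic AMP response element (TGACGTCA, which reads the same on both strands and includes the core TGACG).
Npy: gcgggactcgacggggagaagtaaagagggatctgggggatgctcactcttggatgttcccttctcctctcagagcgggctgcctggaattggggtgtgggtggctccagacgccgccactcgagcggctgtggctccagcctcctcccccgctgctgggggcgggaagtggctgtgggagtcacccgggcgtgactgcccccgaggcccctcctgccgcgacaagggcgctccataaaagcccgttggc
Agrp: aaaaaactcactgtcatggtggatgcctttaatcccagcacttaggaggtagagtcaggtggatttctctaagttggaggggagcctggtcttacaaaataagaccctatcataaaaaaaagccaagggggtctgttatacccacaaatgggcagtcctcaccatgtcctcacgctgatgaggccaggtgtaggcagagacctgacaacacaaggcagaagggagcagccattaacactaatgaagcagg
Pomc: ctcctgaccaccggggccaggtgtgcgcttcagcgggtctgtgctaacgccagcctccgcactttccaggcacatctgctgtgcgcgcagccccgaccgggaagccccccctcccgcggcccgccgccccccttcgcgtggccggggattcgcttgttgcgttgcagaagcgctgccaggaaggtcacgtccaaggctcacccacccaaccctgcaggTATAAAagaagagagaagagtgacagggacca
Cartpt: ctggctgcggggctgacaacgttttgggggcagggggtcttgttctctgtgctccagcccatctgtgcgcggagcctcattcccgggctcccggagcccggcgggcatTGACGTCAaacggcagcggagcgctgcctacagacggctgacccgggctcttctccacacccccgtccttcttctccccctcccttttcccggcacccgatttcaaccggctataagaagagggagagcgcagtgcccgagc
Ghsr: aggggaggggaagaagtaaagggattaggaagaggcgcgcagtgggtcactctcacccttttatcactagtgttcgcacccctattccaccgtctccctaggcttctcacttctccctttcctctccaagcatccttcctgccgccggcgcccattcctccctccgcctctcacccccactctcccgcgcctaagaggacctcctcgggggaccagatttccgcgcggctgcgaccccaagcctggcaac

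Only the Pomc window held TATAAA, from -32 to -27 counted from the start, as did 8.06% of 33465 promoter windows of this length. The Cartpt window alone held TGACGTCA, from -142 to -135, which was found in 1.59% of all windows, and it was also the only one with the core TGACG on either strand (18.2% of all). E-boxes (CANNTG, both strands, not capitalised) were in the windows of Agrp, Pomc and Cartpt and in 65.5% of all. No window of the 5 held a STAT site (TTCNNNGAA), FOXO site (GTAAACA) or homeodomain site (TAATTA) on either strand, which were present in 7.67%, 3.22% and 4.86% of all windows. The Agrp window had a GC content of 48.0%, below the 61.6% to 67.6% of the other 4 windows and near the median of 51.2% over all windows. These letters describe the windows and do not show binding.

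Levels are given as CPM (read counts relative to library size, after TMM scaling between libraries), at a depth of 20041010 to 36539941 counts on genes per library. Every one of the 5 genes passed the filter on low counts. Corrected for length, Cartpt was the most abundant with a median of 102 CPM per kilobase of exon over the 65 libraries. Npy (25.3) and Pomc (24.4) followed, and Ghsr (1.12) and Agrp (0.702) were the least abundant on this scale. The Npy value leaves out the reads assigned to its copy LOC100912228, so its place beside Pomc holds for this row only. The Npy and Agrp rows thus differed widely in level although one set of arcuate neurons makes both transcripts. The spread between libraries was wide. Pomc ran from 1.65 to 2343 CPM, Agrp from 0.0989 to 19.2, Cartpt from 5.88 to 262, Npy from 4.15 to 76.2 and Ghsr from 0 to 13.7. Between the 12 combinations of group and batch lay 11.9% of the log2 variance of Npy, 17.8% of Cartpt, 22.4% of Agrp, 26.2% of Pomc and 28.8% of Ghsr. The remainder was variance between animals of the same group and batch, with a SD on the log2 scale of 0.85 for Npy, 1.11 for Agrp, 2.53 for Pomc, 1.37 for Cartpt and 0.90 for Ghsr.

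**Figure D1:**
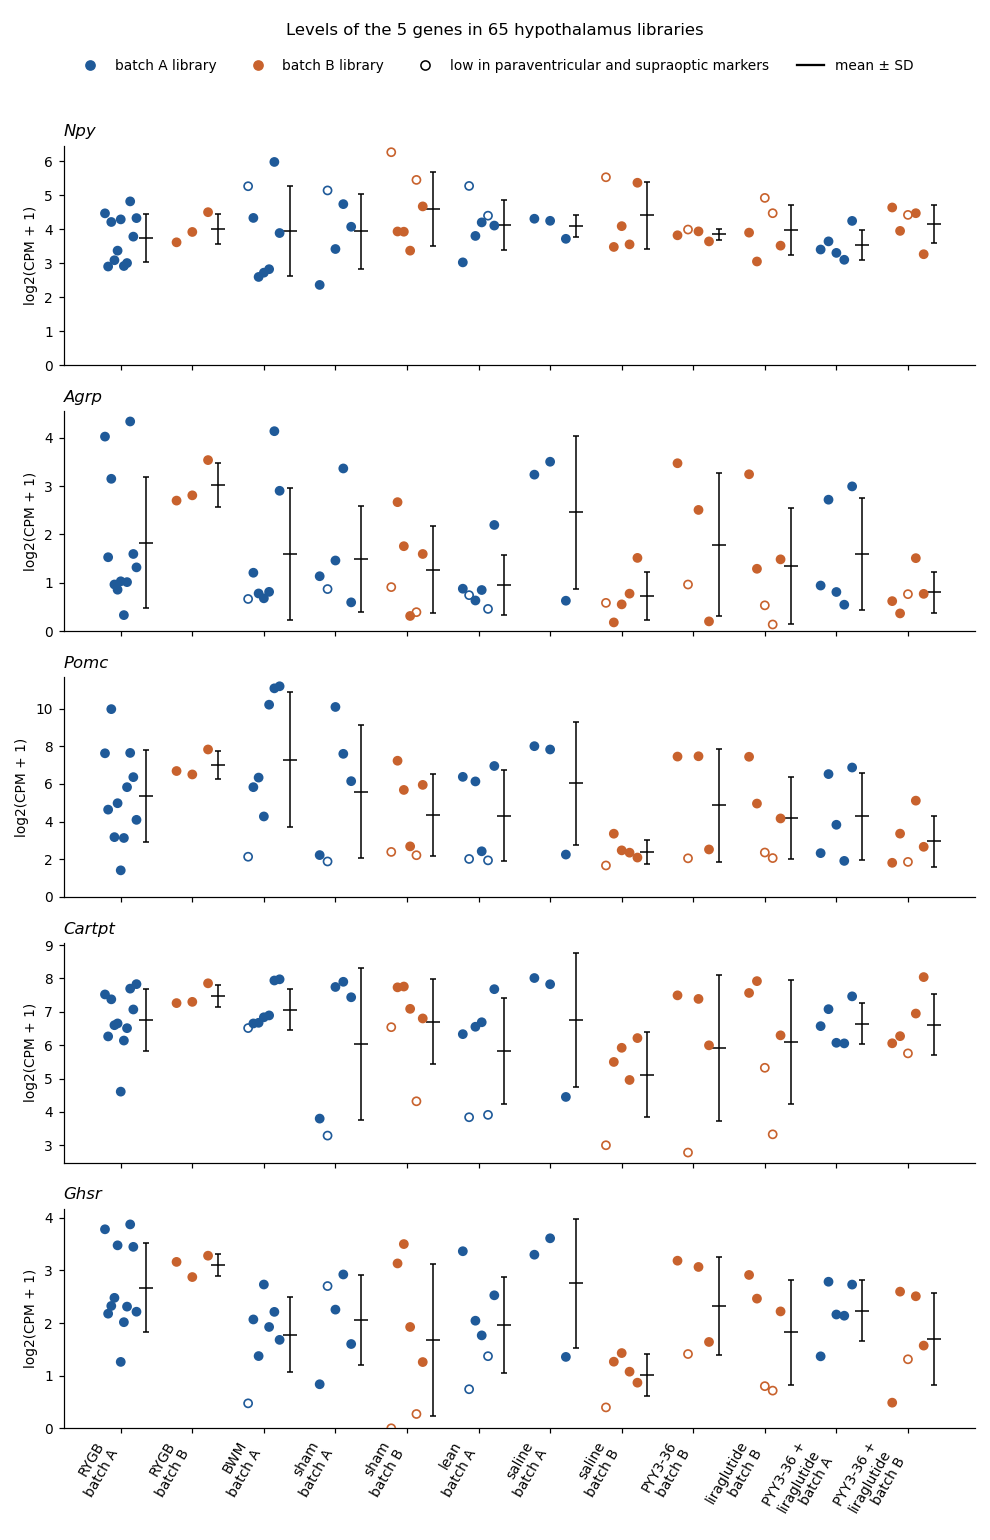
Level of each gene as log2(CPM + 1) in 65 libraries, by group and batch, with the mean ± SD beside the points of each combination. Open circles are the 11 libraries low in paraventricular and supraoptic markers. Pomc spreads from 1.65 to 2343 CPM, and the 3 RYGB libraries of batch B lie above the 5 saline libraries of batch B for Agrp, Pomc, Cartpt and Ghsr.

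The libraries differed in their levels of markers of hypothalamic nuclei. Markers of the paraventricular and supraoptic nuclei (Avp, Oxt, Sim1, Trh and Crh) summed to a median of 870 CPM, with a range of 6.80 to 5853. In 11 libraries the sum was under 10% of the median. These were BWM replicate 1, lean replicates 2 and 5, liraglutide replicates 3 and 4, PYY3-36 replicate 2, PYY3-36 + liraglutide replicate 8, saline replicate 4 and sham replicates 2, 6 and 10, whereas 0 of 14 RYGB libraries were among them. The limit was chosen after the values were seen, with the nearest libraries at 86.9 and 113 CPM on its sides. Summed arcuate markers (Kiss1, Tac3, Ghrh, Tbx3 and Prdm12) ran from 16.0 to 93.8 CPM, and Tac3 alone had a median of 27.2 CPM. Tac3, Tbx3, Ghrh and Prdm12 were above 0 in all 65 libraries, but Ghrh and Prdm12 fell as low as 0.101 and 0.0991 CPM. Kiss1 was at 0 in 10 libraries. The summed markers of the anterior pituitary exceeded 1000 CPM in BWM replicate 5, with 76840 CPM, and BWM replicate 7, with 1145 CPM, against a median of 11.1. Values without the 11 and without these 2 libraries are given where they change a result.

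In those 11 libraries Pomc was 2.17 to 4.23 CPM with a median of 3.13, whereas the other 54 had a median of 55.8 and a range of 1.65 to 2343. Agrp reached at most 0.949 CPM in the 11, with a median of 0.584. The 54 had a median of 1.47 and a range of 0.132 to 19.2. Cartpt had medians of 14.1 and 120 CPM, and Ghsr of 0.673 and 3.72. Npy was the exception, with a median of 34.4 CPM in the 11 libraries and 13.5 in the 54. In whole-tissue RNA, fewer cells of a type and less RNA per cell cannot be told apart, and the part of dissection in any group difference was not tested.

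**Figure D2:**
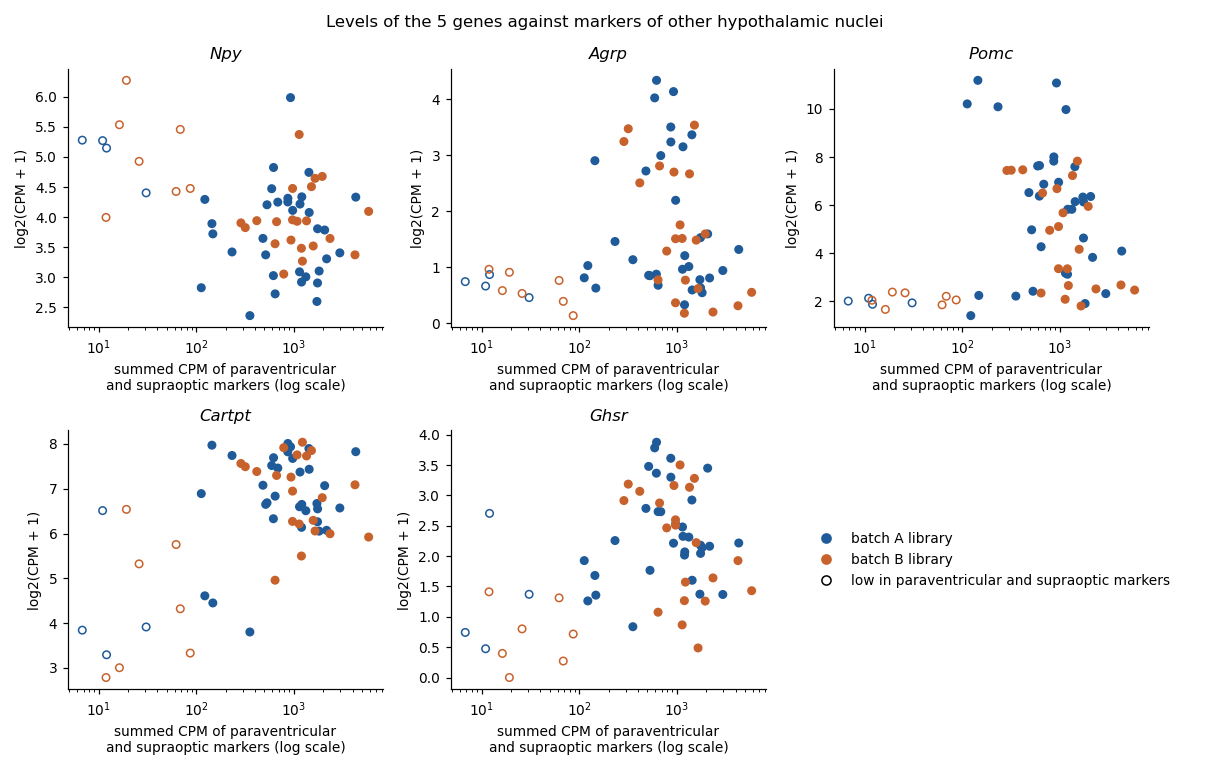
Level of each gene as log2(CPM + 1) against the summed CPM of 5 paraventricular and supraoptic markers on a log scale, 1 point per library. The 11 open circles hold Pomc at 2.17 to 4.23 CPM, while their Npy median of 34.4 CPM is above the 13.5 of the other 54 libraries.

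Npy, the appetite-promoting peptide of the first set of neurons, had the smallest spread. In batch A, the RYGB libraries held 6.5 to 27.3 with a median of 12.8 CPM and the sham libraries 4.15, 34.4, 9.72, 25.8 and 15.9 CPM. BWM libraries held 5.06 to 62.3 with a median of 13.9 CPM. Lean libraries held 7.16 to 37.8 with a median of 16.9 CPM. All of these ranges overlapped, and the highest BWM library (replicate 6) stood well above every RYGB library. For saline the batch A values were 18.9, 18.1 and 12.2 CPM, against 9.61, 11.5, 8.9, 7.6 and 18 CPM under combined treatment. Batch B had RYGB libraries at 11.3, 14.2 and 21.7 CPM and sham libraries at 9.37 to 76.2 with a median of 19.4 CPM. The highest Npy level of all was in sham replicate 6, which is one of the 11 libraries low in paraventricular and supraoptic markers. Under saline, batch B libraries had 45.3, 10.2, 16.1, 10.8 and 40.4 CPM. Those of PYY3-36 had 13.2, 14.9, 14.4 and 11.5 CPM, those of liraglutide 14, 7.31, 29.4, 21.3 and 10.5 CPM and those of both hormones 24, 14.5, 20.5, 21.3 and 8.64 CPM. By mean log2 level the order in batch A was lean, saline, sham, BWM, RYGB and combined treatment, and in batch B sham, saline, combined treatment, RYGB, liraglutide and PYY3-36, and in both the ranges of the first and the last group overlapped.

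Agrp, the melanocortin receptor antagonist made by the same neurons, was low in most libraries and over 5 CPM in at least 1 library of every group but lean. RYGB libraries of batch A held 0.257 to 19.2 with a median of 1.49 CPM, and those of batch B 5.49, 6.0 and 10.6 CPM. Sham libraries held 1.2, 0.826, 1.75, 9.29 and 0.509 CPM in batch A and 0.241 to 5.35 with a median of 1.45 CPM in batch B. The lowest of the 3 RYGB libraries of batch B (5.49 CPM) was just above the highest sham library (5.35 CPM), as in 7.54% of all genes, while in batch A both groups spanned low and high values. BWM libraries held 0.584 to 16.6 with a median of 0.754 CPM, and lean libraries 0.373 to 3.58 with a median of 0.737 CPM. For saline the values were 8.42, 10.3 and 0.545 CPM in batch A and 0.498, 0.132, 0.466, 0.71 and 1.85 CPM in batch B. The saline group was the highest in batch A and the lowest in batch B by mean log2 level. PYY3-36 gave 10.1, 0.949, 4.68 and 0.149 CPM and liraglutide 8.47, 1.44, 0.446, 0.0989 and 1.8 CPM. Combined treatment gave 0.92, 5.57, 0.75, 0.459 and 6.96 CPM in batch A and 0.536, 0.288, 0.698, 1.84 and 0.705 CPM in batch B. Within each hormone group the animals thus differed by more than 6-fold, the ratio of highest to lowest being 6.41 for combined treatment in batch B, 67.9 for PYY3-36 and 85.7 for liraglutide.

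Pomc, the precursor of α-MSH and, in the pituitary, of ACTH, varied most. It was under 10 CPM in 28 libraries, between 10 and 1000 in 32 and over 1000 in 5. RYGB libraries of batch A held 1.65 to 1005 with a median of 30.4 CPM, and those of batch B 102, 89.7 and 227 CPM. Sham libraries held 3.65, 2.68, 1090, 193 and 69.8 CPM in batch A and 3.63 to 149 with a median of 27.8 CPM in batch B. RYGB and sham ranges overlapped in both batches. BWM libraries held 3.37 to 2343 with a median of 79.8 CPM, with replicates 5, 6 and 7 all above 1000. Lean libraries held 2.83 to 123 with a median of 36.7 CPM. For saline the values were 256, 227 and 3.74 CPM in batch A and 2.17, 9.22, 4.53, 4.08 and 3.24 CPM in batch B, so that every saline library of batch B was under 10 CPM. PYY3-36 gave 174, 3.13, 176 and 4.72 CPM and liraglutide 173, 30, 4.11, 3.16 and 16.9 CPM. Combined treatment gave 4.0, 90.9, 13.2, 2.75 and 116 CPM in batch A and 2.5, 9.25, 2.62, 33.5 and 5.31 CPM in batch B. Each of these treated groups had libraries at both low and high Pomc, as PYY3-36 shows with 2 of its libraries under 5 CPM and 2 over 170.

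The 5 libraries over 1000 CPM of Pomc were BWM replicates 5, 6 and 7 (1184, 2167 and 2343 CPM), RYGB replicate 3 (1005 CPM) and sham replicate 3 (1090 CPM), and the next highest library had 256 CPM. Their ratio of Pomc to Cartpt was 10.1, 8.88, 9.36, 6.10 and 5.11, whereas no other library exceeded 1.08. BWM replicate 5 held 12890 CPM of prolactin (Prl) and 62720 CPM of growth hormone (Gh1), the main products of the anterior pituitary, and 174 CPM of Pou1f1, the transcription factor of the cells that make them. BWM replicate 6 had 0.371 CPM of Prl and 1.34 of Gh1, with a sum of 437 CPM over the pituitary markers, and RYGB replicate 3 had 0.674 and 5.49. In BWM replicate 7 the Prl level was 104 CPM and the Gh1 level 492 CPM, and in sham replicate 3 they were 10.9 and 47.7. Pax7, a transcription factor of the intermediate lobe of the pituitary, whose cells make POMC, was at 1.97, 2.59 and 1.48 CPM in BWM replicates 6 and 7 and RYGB replicate 3, at 0.215 in BWM replicate 5 and at 0 in sham replicate 3. It was as high in libraries with less Pomc, at 2.02 CPM in PYY3-36 + liraglutide replicate 10 (Pomc 5.31 CPM) and at 1.69 and 1.54 in RYGB replicates 12 and 13 (Pomc 102 and 89.7 CPM). Pax7 was chosen after its values were seen, and the part of pituitary genes in the high Pomc levels was not tested.

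Cartpt encodes the CART precursor, which in rodents reduces eating. RYGB libraries held 23.4 to 226 with a median of 99.5 CPM in batch A and 152, 156 and 230 CPM in batch B. Sham libraries held 12.9, 8.79, 213, 238 and 172 CPM in batch A and 19 to 215 with a median of 123 CPM in batch B. The sham libraries of batch A were split between 2 values under 13 CPM and 3 over 170, and RYGB values lay among them. BWM libraries held 90.3 to 250 with a median of 113 CPM, the narrowest range of the groups with more than 5 animals. Lean libraries held 13.3 to 204 with a median of 86.1 CPM. Saline gave 257, 226 and 20.8 CPM in batch A and 7.01, 44.2, 59.6, 30.1 and 73.1 CPM in batch B. The mean log2 level was highest under BWM in batch A and under RYGB in batch B. PYY3-36 gave 179, 5.88, 166 and 62.8 CPM and liraglutide 188, 241, 39, 9.05 and 77.5 CPM. Combined treatment gave 94, 134, 66.2, 65.4 and 175 CPM in batch A and 65.5, 76.2, 53, 122 and 262 CPM in batch B. All 10 libraries of combined treatment were above the median of the 8 saline libraries, but in batch A all 5 were below the higher 2 saline libraries, and the ranges overlapped.

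Ghsr, the ghrelin receptor, was present at a few CPM. RYGB libraries held 1.4 to 13.7 with a median of 4.01 CPM in batch A and 7.96, 6.34 and 8.72 CPM in batch B. Sham libraries held 0.786, 5.52, 3.78, 6.59 and 2.04 CPM in batch A and 0 to 10.3 with a median of 2.1 CPM in batch B. The value of 0 belonged to sham replicate 6, in which 3 counts, the limit that a count of 0 allows, would be 0.165 CPM. BWM libraries held 0.389 to 5.65 with a median of 2.8 CPM, and lean libraries 0.673 to 9.31 with a median of 2.77 CPM. The highest BWM library was below the highest RYGB library but well within the RYGB range. Saline gave 8.85, 11.2 and 1.56 CPM in batch A and 0.317, 1.4, 1.69, 1.11 and 0.824 CPM in batch B. PYY3-36 gave 8.1, 1.66, 7.38 and 2.12 CPM and liraglutide 6.54, 4.52, 0.743, 0.643 and 3.66 CPM. Combined treatment gave 1.58, 5.9, 3.48, 3.41 and 5.65 CPM in batch A and 0.402, 5.06, 1.48, 4.7 and 1.97 CPM in batch B. As with Agrp, Pomc and Cartpt, saline and RYGB were the lowest and the highest group of batch B.

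Neighbours in these orders of groups were also tested. The orders were taken from the same values and place the closest groups side by side. These tests could therefore hardly find a difference, and they say nothing about groups further apart. In exact two-sided permutation tests of log2(CPM + 1), 0 of 50 neighbouring pairs had an unadjusted p under 0.05, and the smallest Benjamini-Hochberg adjusted p was 0.996. In batch B, every RYGB library was above every saline library for 4 of the 5 genes, all but Npy. That pair of groups was picked as the highest and the lowest, and of all 21871 genes tested 6.83% were higher in every RYGB library of batch B and 7.24% were lower. Fitted over both batches, RYGB against saline gave log2 fold changes of 0.99 for Agrp, 1.71 for Pomc, 0.60 for Cartpt and 0.99 for Ghsr, and all 4 had an adjusted p of 1.0. In batch A, the RYGB and saline ranges overlapped for all 5 genes.

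The comparison of RYGB with sham asks what bypass surgery does to the transcripts beyond the operation itself. None of the 5 genes passed the test. Agrp had the largest fitted difference, with a log2 fold change of 1.07 ± 0.71 (SE, 95% interval -0.35 to 2.49, adjusted p = 0.313). For Ghsr it was 0.66 ± 0.52 (SE, 95% interval -0.39 to 1.7, adjusted p = 0.411), and for Npy -0.55 ± 0.36 (SE, 95% interval -1.27 to 0.18, adjusted p = 0.312). Pomc and Cartpt were close to no difference on average, at 0.079 ± 0.93 (SE, 95% interval -1.77 to 1.93, adjusted p = 0.966) and 0.012 ± 0.49 (SE, 95% interval -0.98 to 1.0, adjusted p = 0.991). Thus 0 of 5 genes were called by edgeR at a Benjamini-Hochberg adjusted p under 0.05, against 13% of all genes tested in this comparison. Ghsr was above the median of all sham libraries in 13 of 14 RYGB libraries, and the exact permutation test within batches gave a difference of 0.91 on the log2(CPM + 1) scale and an unadjusted p = 0.0461, 1 of 40 such tests. The intervals of Agrp and Ghsr reach from slightly lower levels to more than 3-fold higher ones, so changes of that size were not excluded at this spread. Without the 11 libraries low in nuclei markers, which hold 3 sham and no RYGB animals, the log2 fold change of Npy was 0.055, of Agrp 0.78, of Pomc -0.36, of Cartpt -0.27 and of Ghsr 0.49.

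Within batches, the RYGB and sham libraries gave log2 fold changes for Agrp of 0.81 in batch A and 2.0 in batch B. For Pomc they were -0.84 and 1.63, opposite in sign. Ghsr had 0.79 and 1.05, Npy -0.35 and -0.92, and Cartpt -0.037 and 0.48. No member had an unadjusted p under 0.05 in batch A, where 22.7% of all genes had one, or in batch B, where 26.4% had one. The difference between batches was tested itself and was not called for any of the 5 genes, nor for any other gene (0% of all genes tested, and 10.4% had an unadjusted p under 0.05). It was 2.49 ± 1.92 (SE, 95% interval -1.36 to 6.34, adjusted p = 0.698) for Pomc on the log2 scale and 1.17 ± 1.43 (SE, 95% interval -1.69 to 4.04, adjusted p = 0.831) for Agrp.

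Food restriction aimed at the weight of RYGB animals was compared with sham to set weight loss without bypass beside bypass. Pomc was the member with the largest difference, at 1.86 ± 1.15 (SE, 95% interval -0.44 to 4.15, adjusted p = 0.523) on the log2 scale, and 3 of 7 BWM libraries were over 1000 CPM. Ghsr lay at -0.77 ± 0.66 (SE, 95% interval -2.1 to 0.55, adjusted p = 0.679). The remaining genes differed little on average, with 0.14 for Npy, 0.27 for Agrp and 0.043 for Cartpt. No member was called, against 0.32% of all genes tested. Without the 2 libraries rich in pituitary markers the Pomc difference was 1.01. With the arcuate marker score as a covariate it was 4.39 (adjusted p = 0.0048), and 184 of 21871 genes were then called. Within batch A alone it was 1.64 (17.5% of all genes then had an unadjusted p under 0.05). With the pituitary marker score it was -1.02 (adjusted p = 0.809). The sign of the Pomc difference therefore depended on which markers were adjusted for. Of the markers of the anterior pituitary, 5 of 9 tested were called higher in BWM than in sham libraries, among them Prl at 10.35 ± 1.76 (SE, adjusted p = 0.0014) and Gh1 at 10.65 ± 1.85 (SE, adjusted p = 0.0014), and their part in the Pomc values was not tested apart from that adjustment. Without the 2 libraries rich in these markers, edgeR called 0 of the 8 then tested, 1 had an unadjusted p under 0.05, and Prl and Gh1 had log2 fold changes of -0.90 and -1.85.

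RYGB was compared with BWM to set bypass beside food restriction aimed at the same body weight. Ghsr had a log2 fold change of 1.43 ± 0.62 (SE, 95% interval 0.18 to 2.68, adjusted p = 0.344), and its unadjusted p was 0.0253. In 13 of 14 RYGB libraries Ghsr was above the BWM median of 2.8 CPM, although the ranges overlapped. The exact permutation test within batch A gave a difference of 0.89 on the log2(CPM + 1) scale with an unadjusted p = 0.0356, while edgeR within that batch gave 1.21 (unadjusted p = 0.0236, adjusted p = 0.674), where 6.94% of all genes had an unadjusted p under 0.05. The value over both batches was the only unadjusted p under 0.05 among the 40 edgeR tests of these genes, in a comparison in which 12.6% of all genes had one. Pomc differed by -1.78 ± 1.1 (SE, 95% interval -3.98 to 0.42, adjusted p = 0.485) and Npy by -0.69 ± 0.39 (SE, 95% interval -1.47 to 0.091, adjusted p = 0.445). Agrp and Cartpt had log2 fold changes of 0.80 and -0.031. Of the 5 genes 0 were called, against 0.343% of all genes tested. With the arcuate marker score as a covariate Pomc was called, at -5.05 (adjusted p = 0.00071), as were 62 of 21871 genes including Pomc. With the pituitary marker score Pomc was -0.29 (adjusted p = 0.891). Without the 2 libraries rich in pituitary markers its difference was -0.93.

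Lean animals were compared with sham animals, with the limit that the labels do not describe the diet or treatment of the lean group. Pomc had a log2 fold change of -2.29 ± 1.33 (SE, 95% interval -4.95 to 0.37, adjusted p = 0.478) and Agrp of -1.48 ± 0.98 (SE, 95% interval -3.44 to 0.47, adjusted p = 0.54). Cartpt had -0.74, Ghsr -0.38 and Npy -0.055. Neither a member nor any other gene was called (0% of all genes tested), and 12.2% of all genes had an unadjusted p under 0.05. The lean libraries were all of batch A, where the sham group has 5 animals. In that batch the log2 fold change was -2.53 for Pomc and -1.26 for Agrp. Without sham replicate 3, which had 1090 CPM of Pomc, the Pomc difference was -1.22.

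**Figure D3:**
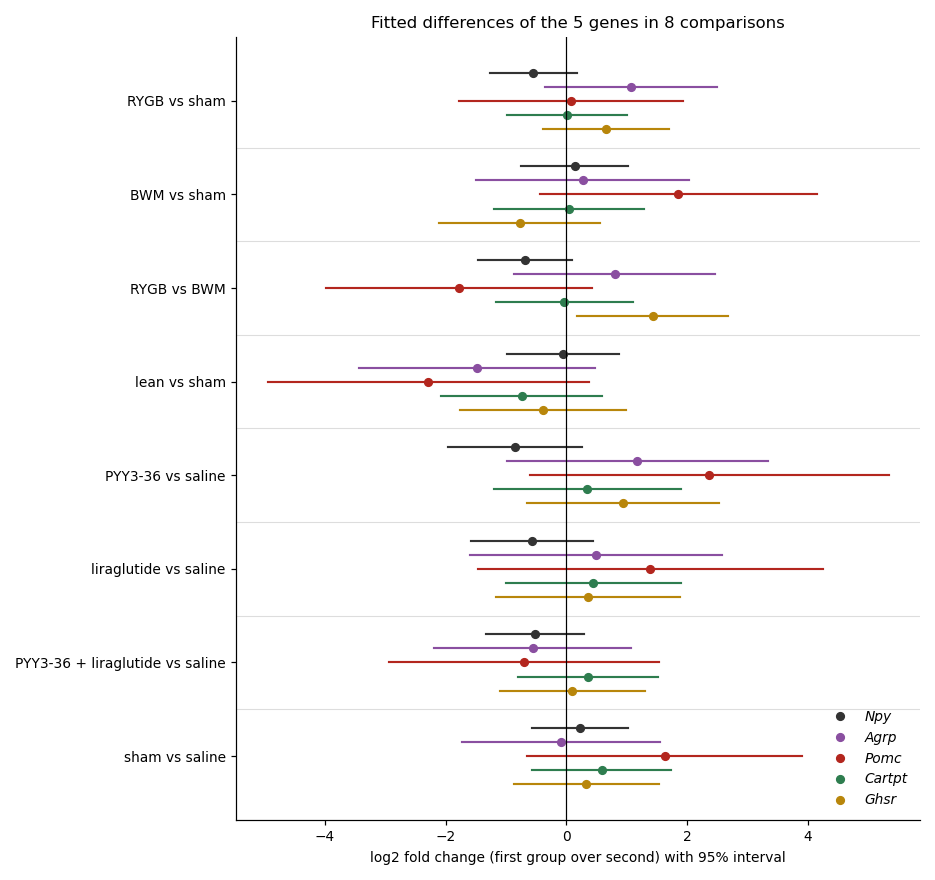
Fitted log2 fold changes (points) with 95% intervals (lines) of the 5 genes in the 8 comparisons, from the edgeR model with group and batch over 65 libraries. All intervals include 0 except that of Ghsr in RYGB vs BWM, from 0.18 to 2.68, and the Pomc intervals are the widest.

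Treatment with PYY3-36 or liraglutide was compared with saline to see what each hormone does alone. Under PYY3-36, which acts on NPY receptors of arcuate neurons, Pomc had a log2 fold change of 2.37 ± 1.49 (SE, 95% interval -0.60 to 5.34, adjusted p = 0.672). Agrp had 1.18 ± 1.08 (SE, 95% interval -0.99 to 3.34, adjusted p = 0.739) and Ghsr 0.93 ± 0.80 (SE, 95% interval -0.66 to 2.53, adjusted p = 0.728). Npy went the other way, at -0.85 ± 0.55 (SE, 95% interval -1.96 to 0.25, adjusted p = 0.676), and Cartpt had 0.35. No gene was called in this comparison, the 5 members included (0% of all genes tested), and 7.54% of all genes had an unadjusted p under 0.05. All PYY3-36 animals belonged to batch B. Against the 5 saline animals of that batch alone the log2 fold change was 4.29 (unadjusted p = 0.0033, adjusted p = 0.128) for Pomc, 2.47 (unadjusted p = 0.0237, adjusted p = 0.245) for Agrp and 2.18 (unadjusted p = 0.0291, adjusted p = 0.261) for Ghsr, where 15.8% of all genes had an unadjusted p under 0.05. Ghsr was above the median of all saline libraries in 4 of 4 PYY3-36 libraries, and the exact permutation test gave p = 0.0159, unadjusted. Markers of the anterior pituitary had a median log2 fold change of 2.16 over 9 genes in this comparison. Of these, 3 had an unadjusted p under 0.05 by edgeR, Gh1 at 8.98 ± 2.31 (SE, adjusted p = 0.519), Prl at 8.83 ± 2.3 (SE, adjusted p = 0.535) and Fshb at 4.17 ± 1.87 (SE, adjusted p = 0.652). Prl and Gh1 were high in PYY3-36 replicate 3 alone, at 86.5 and 317 CPM, with Pomc at 176 CPM. In PYY3-36 replicate 1 they were at 0 and 0.199 CPM, with Pomc at 174 CPM. PYY3-36 replicates 2 and 4 held at most 0.0743 CPM of Prl and 0.409 CPM of Gh1. With the pituitary marker score as a covariate the log2 fold change of Pomc was -0.089. Within batch B the Ghsr ranges still overlapped, at 1.66 CPM in the lowest PYY3-36 and 1.69 CPM in the highest saline library. Saline replicates 1 and 2 of batch A held 8.85 and 11.2 CPM, above the highest PYY3-36 library at 8.1 CPM.

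Under liraglutide, which acts on the GLP-1 receptor, Pomc had a log2 fold change of 1.39 ± 1.43 (SE, 95% interval -1.46 to 4.25, adjusted p = 1.0) and Npy of -0.57 ± 0.51 (SE, 95% interval -1.58 to 0.45, adjusted p = 1.0). Agrp, Cartpt and Ghsr had 0.49, 0.45 and 0.36. Again no gene was called (0% of all genes tested), and 2.08% of all genes had an unadjusted p under 0.05. Within batch B, Pomc had 3.31 (unadjusted p = 0.0137, adjusted p = 0.943), where 5.08% of all genes had an unadjusted p under 0.05. With the replicate number as a block, the log2 fold changes were -0.45 for Npy, 1.76 for Agrp, 2.22 for Pomc, 1.36 for Cartpt and 1.02 for Ghsr, and none was called. This comparison and that of PYY3-36 share the saline animals and are not independent. Without liraglutide replicate 1, which had 173 CPM of Pomc and 8.47 CPM of Agrp, the log2 fold changes over both batches were -0.34 for Pomc and -0.86 for Agrp.

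Combined treatment was the hormone group with animals in both batches. Npy had a log2 fold change of -0.51 ± 0.40 (SE, 95% interval -1.32 to 0.30, adjusted p = 1.0) and Pomc of -0.70 ± 1.12 (SE, 95% interval -2.94 to 1.53, adjusted p = 1.0). Agrp had -0.56, Cartpt 0.36 and Ghsr 0.10. None of the 5 was called, against 0.00457% of all genes tested. For 4 genes the sign differed between batches, Npy being the exception. Ghsr had -0.85 in batch A and 1.36 in batch B, and Cartpt -0.64 and 1.44. Pomc had -1.83 and 1.22, and Agrp -1.13 and 0.20. Tested itself, the difference between batches was 2.2 ± 1.16 (SE, 95% interval -0.12 to 4.51, adjusted p = 1.0) for Ghsr and 2.09 ± 1.13 (SE, 95% interval -0.17 to 4.34, adjusted p = 1.0) for Cartpt, and it was called for none of the 5 and for 0% of all genes tested, with an unadjusted p under 0.05 for 3.25% of all genes. Within batch B, 9.55% of all genes had such a p.

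The control groups were compared with each other because sham animals had surgery and saline animals did not. Pomc was the member with the largest difference, at 1.63 ± 1.14 (SE, 95% interval -0.65 to 3.91, adjusted p = 0.555), followed by Cartpt at 0.58 ± 0.57 (SE, 95% interval -0.57 to 1.73, adjusted p = 0.701). Ghsr had 0.33, Npy 0.23 and Agrp -0.086. None of the 5 was called, against 0.0137% of all genes tested. In batch A the difference of Ghsr was -0.95 and that of Cartpt -0.38, in batch B 1.8 and 1.6. Pomc in batch B had 3.28 (unadjusted p = 0.0129, adjusted p = 0.24), where 14% of all genes had an unadjusted p under 0.05.

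Over the 40 tests of 5 genes in 8 comparisons, edgeR called 0 and gave 1 unadjusted p under 0.05. DESeq2, the tool of the study, also called 0 and gave 2, for Ghsr in RYGB vs BWM and for Pomc in lean vs sham. The precision sets what could be seen. The 95% intervals extended between 0.72 and 1.11 log2 units to each side for Npy, 0.99 to 1.55 for Cartpt, 1.04 to 1.59 for Ghsr, 1.42 to 2.17 for Agrp and 1.85 to 2.97 for Pomc. A doubling of Agrp or Pomc is therefore within the interval of most comparisons, and these data do not show that the levels were alike. The replicates are separate animals, so these intervals cover variation between animals and of the dissection.

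Across libraries the transcripts were related to each other. The mean of each combination of group and batch was removed first, so that treatment and period do not enter. Agrp, Pomc, Cartpt and Ghsr varied together in each of their 6 pairs (n = 65 animals). Agrp and Pomc, products of the opposing sets of neurons, had the closest relation, with Pearson's r = 0.75 and Spearman's rho = 0.78. Pomc and Cartpt had r = 0.72 and rho = 0.75, and Pomc and Ghsr r = 0.64 and rho = 0.66. The coefficient of Agrp and Pomc was thus no smaller than that of Pomc and Cartpt, which share neurons. For Cartpt and Ghsr r was 0.62 and rho 0.62, for Agrp and Cartpt 0.59 and 0.67, and for Agrp and Ghsr 0.57 and 0.56. All 6 had adjusted permutation p between 2.0e-05 and 3.3e-05 for both coefficients, over 10 pairs, and 1e-05 is the smallest unadjusted p that 100000 permutations can give. Leaving out the 2 libraries farthest from the median of the first gene kept r of these pairs between 0.56 and 0.75.

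**Figure D4:**
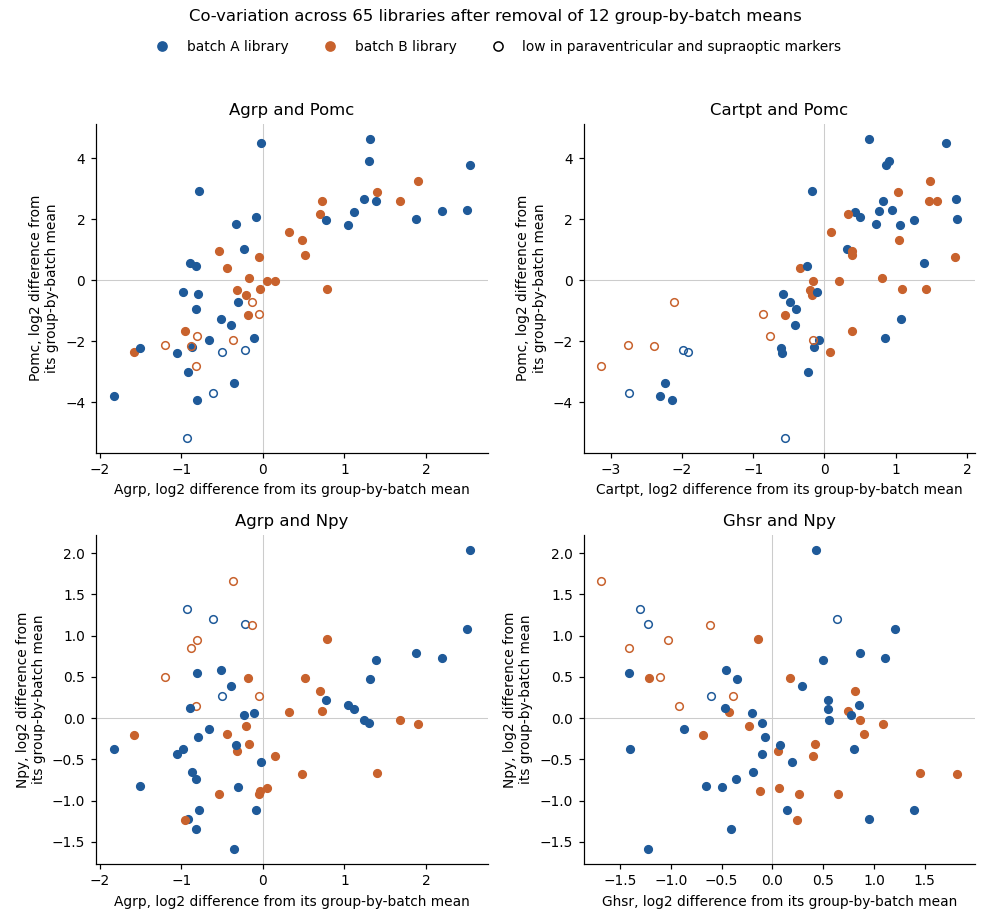
Log2(CPM + 1) of 2 genes in each panel as the difference from the mean of the library's group and batch, 1 point per library. Agrp and Pomc (r = 0.75) and Cartpt and Pomc (r = 0.72) lie along a rising line, and in the panels with Npy the open circles, the 11 libraries low in nuclei markers, mostly lie at high Npy.

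Npy did not follow the others in this way. Its r was 0.34 with Agrp (adjusted p = 0.0156, permutation test), with rho = 0.25, which did not pass (adjusted p = 0.0788). With Pomc, Cartpt and Ghsr the r of Npy was -0.020, -0.12 and -0.21, and the rho was -0.039, -0.071 and -0.19, with adjusted permutation p of 0.161 or more. The relation with Agrp was 0.53 in batch A (n = 37, adjusted permutation p = 0.0028) and -0.059 in batch B (n = 28, adjusted permutation p = 0.772), so it did not hold within both batches. In batch B Npy was inversely related to Ghsr (r = -0.62, adjusted permutation p = 0.0040) and to Cartpt (r = -0.46, adjusted permutation p = 0.017), but not in batch A (r = 0.083 and 0.12). The 6 pairs without Npy passed in each batch, with r from 0.55 to 0.76 in batch A and from 0.62 to 0.87 in batch B.

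The place of Npy depended on the 11 libraries low in paraventricular and supraoptic markers. Without them (n = 54), Npy had r = 0.67 with Agrp, 0.41 with Pomc and 0.43 with Cartpt, with adjusted permutation p of 3.3e-05, 0.0124 and 0.0024, while r with Ghsr was 0.18 (adjusted permutation p = 0.203). Npy and Agrp, which share neurons, then were among the close pairs. The other 6 pairs kept r between 0.56 and 0.75. When instead the arcuate marker score was removed by regression (n = 65), Npy and Agrp had r = 0.60 (adjusted permutation p = 0.00020), and none of the other 9 pairs passed by Pearson's r. Agrp and Pomc then had r = 0.39 (adjusted permutation p = 0.0689) and rho = 0.37, which passed (adjusted permutation p = 0.0466). Pomc and Cartpt had r = 0.33 (adjusted permutation p = 0.0689), and Agrp and Ghsr had 0.021.

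**Figure D5:**
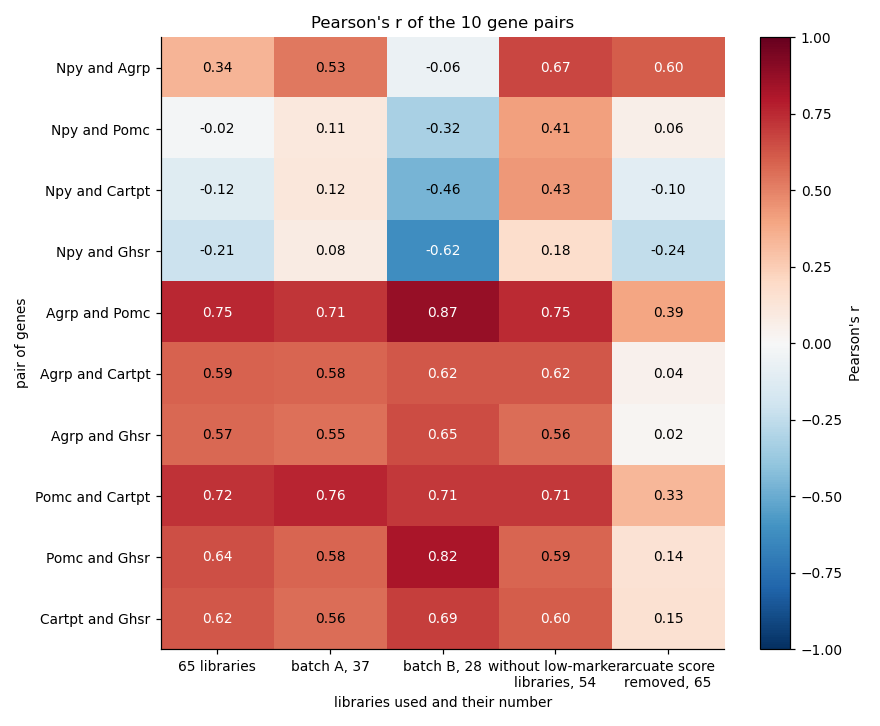
Pearson's r of the 10 gene pairs over all 65 libraries, in each batch, without the 11 libraries low in nuclei markers, and after removal of the arcuate marker score, on a colour scale from -1 to 1. Npy and Agrp have the highest r after removal of the score (0.60), and the pairs of Npy with Cartpt and Ghsr change sign between columns.

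The members were also set against markers of the arcuate nucleus and its neighbours, on the same residuals over 65 libraries (60 relations in all), and differences between these coefficients were not tested. With arcuate markers Agrp, Pomc, Cartpt and Ghsr had r = 0.76, 0.78, 0.75 and 0.74 and rho = 0.69, 0.78, 0.72 and 0.78. Ghsr had r = 0.88 and rho = 0.88 with markers of the ventromedial nucleus. Agrp had r = 0.84 and rho = 0.76 with markers of tanycytes, the cells that line the floor of the third ventricle next to the arcuate nucleus, and r = 0.55 and rho = 0.77 with those of the anterior pituitary (adjusted permutation p = 0.00046 for r). Cartpt followed markers of the ventromedial nucleus with 0.79 and 0.76 and of the lateral hypothalamus with 0.73 and 0.72. Pomc had r = 0.80 and rho = 0.81 with the ventromedial markers, and r = 0.73 and rho = 0.86 with 9 markers of the anterior pituitary. All of these but Agrp with the pituitary had an adjusted permutation p of 4.3e-05 for r. Cartpt and Ghsr also followed the pituitary markers, with r = 0.44 and 0.35 (adjusted permutation p = 7.1e-05 and 0.0051) and rho = 0.69 and 0.50. A high sum of these markers did not always come with Prl and Gh1. In saline replicate 1 the sum was 510 CPM, with Prl at 0.0928 and Gh1 at 0. In RYGB replicates 1 and 9, lean replicate 6 and liraglutide replicate 1 it was 302 to 452 CPM. Prl was 0 and Gh1 at most 0.0766 CPM in those libraries. PYY3-36 replicate 3 had a sum of 434 CPM, with Prl at 86.5 and Gh1 at 317. With neuron markers (Rbfox3, Syt1, Snap25 and Tubb3) r was -0.40 for Agrp, -0.64 for Pomc, -0.63 for Cartpt and -0.36 for Ghsr. Each had an adjusted permutation p of 0.0061 or less. Npy had r = 0.49 and rho = 0.50 with tanycyte markers (adjusted permutation p = 0.00057 and 0.00025). Crym, 1 of the 4 genes of that list, itself had r = 0.81 with Npy, and its part in the relation was not tested. With striatum markers Npy had r = 0.61 and rho = 0.63 (adjusted permutation p = 7.1e-05). With paraventricular and supraoptic markers it had r = -0.48 and rho = -0.41 (adjusted permutation p = 0.0017 and 0.0078). With arcuate markers its r was -0.070 and rho -0.061. The r with paraventricular and supraoptic markers was 0.66 for Cartpt, 0.51 for Ghsr and 0.41 for Pomc (adjusted permutation p of 0.0048 or less). For Agrp it was 0.18, with rho = 0.15 (adjusted permutation p = 0.208 and 0.34). Without the 2 farthest libraries r was 0.86 for Ghsr with ventromedial, 0.82 for Agrp with tanycyte, 0.73 for Cartpt with lateral, 0.77 for Pomc with ventromedial and 0.79 for Pomc with pituitary markers, and for Npy it was 0.49 with tanycyte, 0.57 with striatum and -0.40 with paraventricular and supraoptic markers.

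Among all genes tested, those most like each member were found by Pearson's r of the same residuals over the 65 libraries, as a description. For Npy these were its copy LOC100912228 (r = 1.0), which shares its reads, then Crym (0.81), which is in the tanycyte list, and Pkig (0.77). For Agrp they were Dct (0.93), Galp (0.93), which encodes galanin-like peptide, an arcuate peptide, and Fndc3c1 (0.92). For Pomc they were Ces1d (0.87), Col22a1 (0.86) and Kiss1 (0.84), the gene of kisspeptin and one of the arcuate markers. Those of Cartpt were Nkx2-4 (0.83), LOC691995 (0.82) and Nradd (0.82). Those of Ghsr were Sox14 (0.87), which belongs to the ventromedial list, Nr0b1 (0.87) and Fcgbp (0.87). Pomc was in place 35 of the list of Agrp, whereas Npy was in place 1617.

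Other genes of the system were read from 4 lists of 26 genes, all of which were tested. In RYGB vs sham, 4 of 26 were called (15.4%), all higher, against 13% of all genes. They were the leptin receptor Lepr at 1.39 ± 0.37 (SE, adjusted p = 0.0115) on the log2 scale and the insulin receptor Insr at 0.97 ± 0.23 (SE, adjusted p = 0.0048), which are 2 of 5 hormone receptors of arcuate neurons, and the transcription factors Foxo1 at 0.93 ± 0.25 (SE, adjusted p = 0.0113) and Stat3 at 0.46 ± 0.15 (SE, adjusted p = 0.0313), which carry insulin and leptin signals and are 2 of 8 transcription factors. No gene was called among 7 of peptide processing, which cut and amidate the precursors, and among 6 melanocortin and NPY receptors. The median log2 fold change was 0.76 for the hormone receptors, 0.81 for the transcription factors, 0.13 for peptide processing and -0.013 for the receptors of the peptides, and -0.017 over all genes tested. At an unadjusted p under 0.05 peptide processing had 2 genes higher and 2 lower, and the peptide receptors 0 and 1. Of the marker lists, those of choroid plexus and meninges had the highest medians here, at 1.35 and 1.19, and striatum the lowest, at -1.25. The choroid plexus marker Kl was called by edgeR at 2.47 ± 0.46 (SE, adjusted p = 0.0011), 1 of 5 in its list. From which cells the reads of Lepr, Insr, Foxo1 and Stat3 came was not tested. Without the 11 libraries low in nuclei markers 2 of the 26 were called, beside 1297 of all 21990 genes then tested. Within batch A none of the 26 was called, beside 529 of 21775 genes. Against saline in place of sham none of the 26 was called either, beside 1 of 21871 genes. The log2 fold changes were then 0.11 for Lepr, 0.25 for Insr, 0.25 for Foxo1 and 0.12 for Stat3. In sham vs saline Lepr, Insr, Foxo1 and Stat3 had log2 fold changes of -1.28, -0.72, -0.68 and -0.34, not called (edgeR adjusted p from 0.232 to 0.371) but each with an unadjusted p under 0.05, in a comparison in which 12.9% of all genes had one. In the other 7 comparisons edgeR called 0 of the 26 genes. Lepr in BWM vs sham had 1.57 ± 0.44 (SE, adjusted p = 0.0877), and DESeq2 called 1 of the 26 there, beside 237 of 21861 genes.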

How the data were processed

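RNA of the hypothalamus of 65 rats was sequenced by the authors as stranded poly-A libraries with single-end reads. According to the methods and the processing notes of the submitters, reads were trimmed with cutadapt (1.16 in the notes, with later versions also named in the methods), aligned with STAR 2.7.2b to Rnor_6.0 and counted per RefSeq gene with featureCounts 1.6.4 on the reverse strand. The deposited values are estimated counts, because the authors shared reads that map to or overlap several features as fractions, and 30.3% of the values above 0 were not whole. They were rounded here, which changed no library total by more than 0.0011%.

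Of 38513 genes, 21871 passed filterByExpr (minimum count 10, minimum total 15). edgeR 4.0.16 (R 4.3.3) was used with TMM scaling and a quasi-likelihood test with group and batch over all 65 libraries, and p-values were adjusted by Benjamini-Hochberg over all genes tested at 0.05. A model of the 12 combinations of group and batch gave the differences between batches. The scripts were tested on simulated data. DESeq2 1.42.0, RLE scaling, no low-count filter, a replicate block, marker scores as covariates, other controls, single batches and leaving out each library were alternatives. Exact permutation tests were two-sided and relabelled libraries within batches. Co-variation used log2(CPM + 1) after removal of the 12 means, with 100000 permutations within them. Promoters and motifs were read from RefSeq (GRCr8), since no genome of Rnor_6.0 was used here.

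The 5 genes and all lists were chosen with earlier results of these data known. Named are the members, called genes of 4 pathway lists, and the 3 genes most like each member. Same-numbered animals deviated together only for liraglutide and saline (5 pairs, r = 0.36 to 0.68, over 17234 genes), so the block is given beside that comparison. Saline replicates 1 to 3 are of batch A and all liraglutide animals of batch B, so no shared origin is known for these numbers. The replicates are separate animals, and no 2 libraries agreed within sampling noise.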

Additional observations from a re-analysis of the deposited data

Results flagged for a closer look

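Of 45 sets of libraries (a gene in a group and batch of 4 to 10 animals), 2 held a library far from the others by Dixon's test on the log2 scale, which chance alone does in about 1 in 20 sets. Agrp was 3.58 CPM in lean replicate 6, and the other 5 lean libraries held 0.37 to 0.83 CPM. Cartpt was 19 CPM in sham replicate 10, the lowest of the 6 sham libraries of batch B, and this library is also among the 11 low in paraventricular and supraoptic markers.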

How the results depend on the processing

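All log2 fold changes in this paragraph are of differences that were not called in the report, unless stated, and the cause of each change was not tested. Of 483 values of members under other settings that leave out no single library, 58 had the opposite sign and 5 were past a threshold, and of 930 values without 1 library each, 72 had the opposite sign and 0 were called. Without the 11 libraries low in nuclei markers (chosen after seeing the data), Npy was 0.055 in RYGB vs sham, 0.022 in lean vs sham and -0.27 in sham vs saline, Agrp 0.045 in sham vs saline, Pomc -0.36 and Cartpt -0.27 in RYGB vs sham, Cartpt -0.11 in BWM vs sham, Ghsr -0.043 in combined treatment vs saline, the r of Npy with Pomc, Cartpt and Ghsr was 0.41, 0.43 and 0.18, and 2 pathway genes were called in RYGB vs sham. Without the 2 libraries rich in pituitary markers (chosen after seeing the data), Cartpt was -0.12 in BWM vs sham and 0.13 in RYGB vs BWM. With no batch term, Npy was -0.21 in BWM vs sham, Agrp -0.23, Pomc -0.49 and Ghsr -0.074 under liraglutide, Pomc -0.025 in RYGB vs sham and Ghsr -0.014 under combined treatment, and 8, 2 and 3 pathway genes were called in RYGB, BWM and lean vs sham. With the other control group, Npy was 0.17 in lean animals, Pomc -0.24 and Cartpt -0.14 under liraglutide, Cartpt -0.24 under PYY3-36, Cartpt -0.23 and Ghsr -0.23 under combined treatment, and 0, 4 and 2 pathway genes were called for RYGB, PYY3-36 and combined treatment. Within batch A, Npy was 0.044 in lean vs sham, Pomc -0.84 and Cartpt -0.037 in RYGB vs sham (0 pathway genes called), Cartpt -0.64 and Ghsr -0.85 under combined treatment, and Cartpt -0.38 and Ghsr -0.95 in sham vs saline. Within batch B, Agrp was 0.20 and Pomc 1.22 under combined treatment, and Agrp 1.35 in sham vs saline. With the replicate block, Agrp was -0.98, Pomc -2.41, Cartpt -0.90 and Ghsr -0.033 in RYGB vs sham, Agrp -1.55 and Cartpt -0.43 in BWM vs sham and Agrp 0.36 in sham vs saline, and the block changed no call of a member. With the pituitary score as a covariate, Agrp was -0.94 in BWM vs sham, -0.32 under PYY3-36, -0.24 under liraglutide and 0.085 in sham vs saline, Pomc -1.3 in RYGB vs sham, -1.02 in BWM vs sham, -0.089 under PYY3-36 and 0.26 under combined treatment, and Cartpt -0.17, -0.39, 0.23 and -0.18 in RYGB vs sham, BWM vs sham, RYGB vs BWM and PYY3-36 vs saline. With the arcuate score as a covariate, Pomc was called at 4.39 in BWM vs sham and -5.05 in RYGB vs BWM (1 member called in each), and Agrp was -0.18 in RYGB vs BWM, 0.56 under combined treatment and 0.25 in sham vs saline, and Pomc -0.66 in RYGB vs sham and 1.07 under combined treatment. The r with that score removed was 0.056 for Npy and Pomc, 0.39 for Agrp and Pomc, 0.042 for Agrp and Cartpt, 0.021 for Agrp and Ghsr, 0.33 for Pomc and Cartpt, 0.14 for Pomc and Ghsr and 0.15 for Cartpt and Ghsr. Mean differences of log2(CPM + 1) in the exact permutation tests were -0.0027 for Npy in BWM vs sham and 0.19 in lean vs sham, and those of Ghsr past an unadjusted 0.05 were 0.91 in RYGB vs sham, 0.89 in RYGB vs BWM and 1.32 under PYY3-36. A required change above 1 on the log2 scale left 1 pathway gene in RYGB vs sham, beside 518 of all 21871 genes. DESeq2 called 1 pathway gene in BWM vs sham, beside 237 of 21861 genes. Over all 21871 genes, edgeR with no batch term called 5587, 2183 and 2339 in RYGB, BWM and lean vs sham. With the other control group it called 1, 1826 and 3220 for RYGB, PYY3-36 and combined treatment. With the arcuate score it called 184 in BWM vs sham and 62 in RYGB vs BWM. With no means removed, r was 0.21 for Npy and Agrp and -0.28 for Npy and Ghsr. In batch A the r of Npy was 0.11 with Pomc, 0.12 with Cartpt and 0.083 with Ghsr, in batch B -0.059 with Agrp, -0.46 with Cartpt and -0.62 with Ghsr, and without BWM replicate 5 it was 0.014 with Pomc.

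Leaving out 1 library at a time, the log2 fold change of Agrp ranged from -0.88 to 0.79 in BWM vs sham (lowest without BWM replicate 6), -0.86 to 0.94 under liraglutide (lowest without liraglutide replicate 1), -0.54 to 0.42 in sham vs saline and -0.17 to 1.86 for the difference of RYGB vs sham between batches. Cartpt ranged from -0.14 to 0.15 in RYGB vs sham, -0.15 to 0.18 in BWM vs sham, -0.12 to 0.16 in RYGB vs BWM, -0.044 to 0.74 under PYY3-36 and -0.031 to 0.79 under liraglutide. Ghsr ranged from -0.075 to 0.58 under combined treatment, -0.063 to 0.78 under liraglutide and -0.074 to 0.85 for RYGB vs sham between batches. Npy ranged from -0.44 to 0.32 in BWM vs sham (lowest without BWM replicate 6), -0.39 to 0.13 in lean vs sham, -0.055 to 0.42 in sham vs saline and -0.10 to 0.41 for combined treatment between batches. Pomc ranged from -0.43 to 0.91 in RYGB vs sham (lowest without RYGB replicate 3, highest without sham replicate 3) and -0.34 to 1.94 under liraglutide (lowest without liraglutide replicate 1). The number of pathway genes called ranged from 3 to 7 in RYGB vs sham (7 without RYGB replicate 11, 6 without RYGB replicate 6 or sham replicate 7), 0 to 1 in BWM vs sham (1 without BWM replicate 1 or sham replicate 11), 0 to 3 in lean vs sham (3 without lean replicate 6, 1 without sham replicate 1) and 0 to 1 in sham vs saline (1 without sham replicate 1).

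The depth of at least 20041010 counts gave Npy, Pomc and Cartpt 46 or more counts in every library, whereas Agrp had as few as 2 and Ghsr as few as 0, so low values of these genes carry counting error as well as variation between animals. The summed Npy and copy rows gave -0.55 in RYGB vs sham, as for Npy alone.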

Other observations

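Within single groups the co-variation of members differed in size. In the 11 RYGB libraries of batch A, Npy and Agrp had r = 0.74 and Agrp and Pomc r = 0.77. In the 6 sham libraries of batch B, Agrp and Pomc had r = 0.95 and Npy and Ghsr r = -0.83, and in the 6 lean libraries Npy and Ghsr had r = -0.94. In the 7 BWM libraries Agrp and Cartpt had r = 0.93. These coefficients rest on 6 to 11 animals that share a period, were not tested, and are given as values.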
